A study of Bos taurus with 14 samples.

Results

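Creatine kinases and the genes that supply creatine were measured in bovine conceptuses by 9 probe sets of 6 genes, among the 24016 probe sets and 9155 named genes of the array. The genes are CKM, CKB and CKMT2, which encode creatine kinases, GATM and GAMT, which encode the enzymes of creatine synthesis, and SLC6A8, which encodes the creatine transporter. All probe sets whose platform annotation gives 1 of these symbols alone were taken. The group was chosen by the measured difference of CKM between long and short conceptuses, so values of that contrast are given as a description, without a test.

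RNA came from 14 whole Holstein conceptuses, the embryo with its membranes, flushed from recipient heifers on Day 15. All embryos came from superovulated cows inseminated with semen of 1 bull, were collected on Day 6.5 and were graded by morphology. They were then moved to recipients in groups of 2 to 6 embryos of like grade. Of the conceptuses, 11 came from Grade 1 embryos (5 long, 5 short and 1 with no length given) and 3 from Grade 3 embryos. The labels give 6 males and 8 females. No group received a treatment. One label of Grade 1 short replicate 1 calls it long and another short. Length calls and the main values that rest on it are given both ways, while deviations from group means count it as short. Which conceptuses shared a donor cow or a recipient is not stated, so each conceptus was taken as its own replicate and p-values cover the spread among these samples, which may be partly shared. In bulk RNA of a whole conceptus, fewer cells of a type and less RNA per cell cannot be told apart. Markers of trophoblast were bright on average on every array (the mean log2 level of 8 measured genes ran from 11.25 to 11.87). Among them KRT8 and ELF5 were not, at 6.06 and 6.49 in long conceptuses. The means of 6 endometrial genes ran from 4.24 to 4.55 and those of 8 blood and immune genes from 4.52 to 4.98. Single genes of these lists were higher: in long conceptuses MUC1 averaged 6.98, CD68 6.015 and CD8A 5.92. Each array gives 1 log2 value per probe set, arrays carry no read depth, and their number limits the precision.

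The creatine system buffers ATP. GATM joins arginine and glycine to guanidinoacetate, GAMT methylates that product to creatine with S-adenosylmethionine as the donor, and SLC6A8 brings creatine in from outside the cell. Creatine kinases then pass phosphate between ATP and creatine: CKM is the cytosolic form known from skeletal muscle and heart, CKB the cytosolic form of brain and many epithelia, CKMT2 the mitochondrial form of striated muscle and CKMT1 the mitochondrial form of other tissues.

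CKM gave the widest range of the group, but through only 1 of its 2 probe sets. The first probe set, which the annotation ties to a GenBank expressed sequence tag, measured 9.34, 7.51, 6.32, 6.23 and 5.83 (log2) in the 5 short conceptuses. In the 5 long ones it measured 10.42, 10.98, 10.40, 9.95 and 10.87. Every long conceptus was above every short one, and the short group was the more scattered, with Grade 1 short replicate 1 highest in it. Group means were 10.52 ± 0.42 (SD, n = 5) and 7.05 ± 1.43 (SD, n = 5), a log2 difference of 3.48 ± 0.56 (SE), or 11.1 fold. The conceptus with no length measured 8.01, inside the range of the short group only through Grade 1 short replicate 1, whose labels disagree. The other short values, up to 7.51, lay below it. The 3 Grade 3 conceptuses measured 9.51, 8.87 and 10.29, a mean of 9.56 ± 0.71 (SD). They overlapped the long group through Grade 3 replicate 3 and the short group through Grade 3 replicate 2. Without Grade 1 short replicate 1 they did not overlap the short group. With that conceptus counted as long, Grade 3 replicate 1 also lay in the long range.

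The second CKM probe set, which the annotation ties to the RefSeq mRNA of CKM, was flat. It measured 4.03, 4.17, 4.05, 4.28 and 4.35 in short conceptuses and 4.33, 4.40, 4.38, 4.23 and 4.19 in long ones. Grade 3 conceptuses gave 4.25, 4.31 and 4.19, and the conceptus with no length 4.35. Groups overlapped throughout, and long minus short came to 0.13 ± 0.08 (log2, SE), with a 95% interval from -0.04 to 0.30, against 2.26 to 4.69 for the first probe set. Over the 14 arrays the first probe set spanned 5.15 log2 units and the second 0.37. The pair correlated at r = 0.168 (rho = 0.231) over 14 arrays and at r = -0.548 over the deviations of 13 arrays from their group means, as a description. Probes differ in how strongly they bind, so the gap in level between both probe sets, from 1.48 to 6.68 log2 units by array, is no measure of amount. The 11.1-fold value therefore holds for 1 of 2 probe sets, and the mean of both gave a long minus short difference of 1.80. The second probe set was also dim. Its mean of 4.25 was little above the 25th percentile of all probe sets (3.91) and under the lowest array median (5.62). A change might not be visible at this signal, so its flat values say little on CKM.

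**Figure D1:**
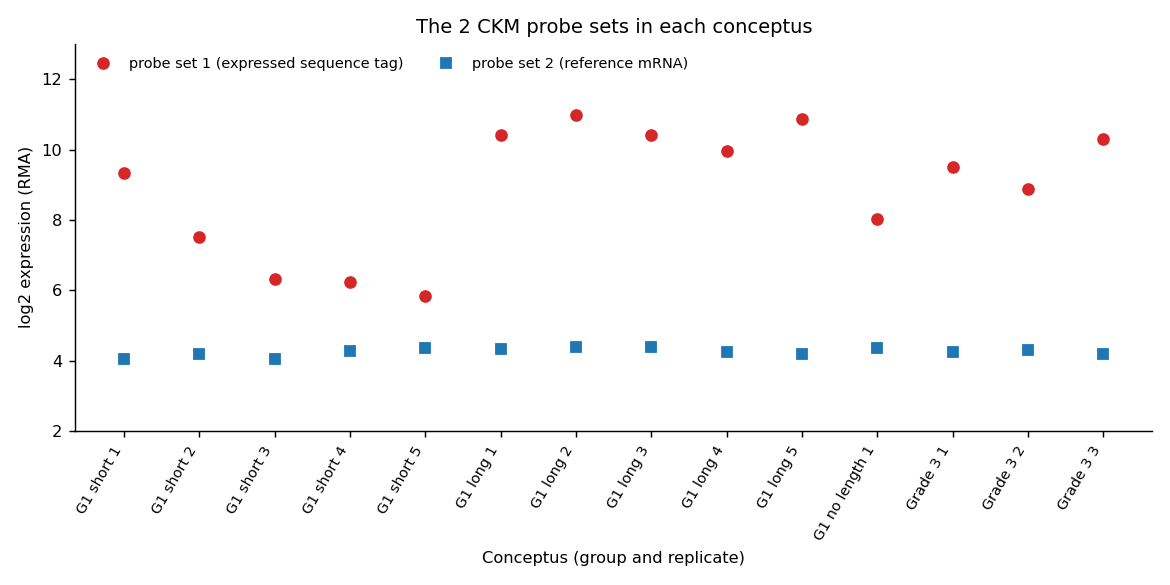
Log2 expression (RMA) of both CKM probe sets (vertical axis) in each of the 14 conceptuses (horizontal axis, G1 for Grade 1). The probe set tied to an expressed sequence tag (circles) runs from 5.83 to 10.98, and the one tied to the reference mRNA (squares) stays between 4.03 and 4.40.

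None of the measured genes beside CKM on its chromosome rose with length. Of the 4 protein-coding genes on each side in the RefSeq order of assembly ARS-UCD2.0, 5 were measured. The kinase gene MARK4, the nearest on one side, measured 5.17 in short and 5.18 in long conceptuses, and ERCC2, a helicase gene of DNA repair, 4.75 and 4.81. PPP1R13L, which encodes a p53-binding inhibitor, stood at -0.06 ± 0.09 (log2 long minus short, SE), and LOC508455 at -0.31 ± 0.22. POLR1G, an RNA polymerase I subunit gene, passed in limma in the opposite direction, at -0.56 ± 0.11.

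Markers of striated muscle, the tissue CKM is named for, were measured for 29 of 41 genes. Their mean log2 level ran from 4.87 to 5.06 in short, from 4.97 to 5.06 in long and from 4.93 to 5.05 in Grade 3 conceptuses, and 9 of the 29 were under the 25th percentile of all probe sets (3.91). Of the 29, 2 rose and 2 fell in long conceptuses and 25 did not pass, while 6.57% of all probe sets passed. TPM2, a beta-tropomyosin, rose by 1.42 ± 0.18 (log2, SE, limma adjusted p = 0.00759) and PGAM2, the muscle phosphoglycerate mutase, by 0.59 ± 0.12 (adjusted p = 0.0226). The muscle glycogen phosphorylase PYGM fell by 0.68 ± 0.10 (adjusted p = 0.00902) and the fast troponin C gene TNNC2 fell by 0.35 ± 0.09 (adjusted p = 0.0395). Skeletal actin ACTA1 stood at 0.16, myoglobin MB at 0.04, desmin DES at -0.01 and fast troponin T TNNT3 at 0.06. Other members moved further without passing, among them the Z-disc gene MYOZ1 at 0.64 ± 0.20 (adjusted p = 0.0776), the slow myosin gene MYH7 at 0.32 ± 0.09 (0.0661), MYL3 at 0.46 ± 0.35 (0.506) and TNNI3 at -0.67 ± 0.27 (0.17). Over the 14 arrays, levels of the 29 genes correlated with CKM probe set 1 in both directions, as a description. The highest were PGAM2 (r = 0.847), MYH7 (0.802) and TPM2 (0.797), and the lowest PYGM (-0.801), ACTN2 (-0.656) and TNNC2 (-0.614). With title prefix fitted as a fixed block neither TPM2 nor PYGM passed, and PYGM did not with the doubtful conceptus counted as long. With 1 conceptus left out, both kept the call in all 10 fits. PGAM2 lost it in 4 (without long replicates 1 and 2 or short replicates 4 and 5, highest adjusted p = 0.0596 without short replicate 4). TNNC2 lost it in 8, all but those without long replicate 3 or short replicate 4 (up to an adjusted p = 0.0898, when long replicate 2 was omitted). PGAM2 also lost it with the prefix block, and TNNC2 with that block and with the doubtful conceptus left out or counted as long. The part of muscle-type cells in the CKM values was not tested.

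Transcription factors that drive muscle genes gave 0 passing of 8 measured (limma), with a median difference of -0.09 against -0.02 over all probe sets. The smallest adjusted p among them were those of MEF2C, at -0.15 ± 0.07 (adjusted p = 0.237), and MEF2A, at 0.14 ± 0.07 (adjusted p = 0.267). MYOD1, the founding muscle regulator, measured 4.94 in long and 5.05 in short conceptuses, and MYOG, which acts after it in muscle differentiation, 5.18 and 5.25.

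GATM, the first step of creatine synthesis, separated by length as CKM did but ranked the conceptuses differently. Short conceptuses measured 5.11, 5.66, 6.63, 5.38 and 5.64 and long ones 7.06, 8.01, 7.23, 7.42 and 7.41. The lengths did not overlap. The means were 7.43 ± 0.36 and 5.68 ± 0.57 (SD, n = 5 each), a difference of 1.74 ± 0.26 (log2, SE) or 3.35 fold. Grade 1 short replicate 1, highest of its group for CKM, was lowest for GATM. The conceptus with no length stood at 7.87 and within the long range, whereas for CKM it had measured below all long conceptuses. In Grade 3, replicates 1 and 3 measured 7.92 and 7.83, as high as long conceptuses, whereas replicate 2 measured 6.11, inside the short range.

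GAMT, the second step, differed less. Its values were 8.08, 7.43, 7.70, 7.72 and 6.90 in short and 8.20, 8.48, 8.38, 7.92 and 7.91 in long conceptuses. Only Grade 1 short replicate 1 reached into the long range. Long minus short was 0.61 ± 0.20 (log2, SE) or 1.53 fold. The Grade 3 conceptuses, at 7.64, 7.16 and 7.41, were all below the long group, and the conceptus with no length measured 7.57. Creatine synthesis genes thus did not share 1 order: GATM in 2 of 3 Grade 3 conceptuses was at the level of long ones, and GAMT in all 3 was at that of short ones.

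The creatine transporter gene SLC6A8 showed little change with length in either probe set. The first measured 6.57, 6.89, 7.36, 7.18 and 7.26 in short and 6.75, 6.92, 7.07, 7.04 and 6.88 in long conceptuses, a difference of -0.12 with a 95% interval from -0.42 to 0.18. The second ran from 6.32 to 6.69 in short and from 6.21 to 6.39 in long ones, with -0.11 (interval from -0.28 to 0.07). Their correlation over 14 arrays was r = 0.19, given as a description.

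CKB gave values of 9.79, 9.56, 9.15, 9.12 and 8.88 in short conceptuses and 9.79, 9.70, 9.89, 9.26 and 9.28 in long ones. The groups overlapped widely, and the difference was 0.28 ± 0.18 (log2, SE) with an interval from -0.11 to 0.68. CKMT2 was dim. Its probe sets ran from 2.76 to 3.13 and from 2.65 to 3.28 over all 14 arrays, under the 25th percentile of all probe sets, and correlated at r = -0.118. A change at this signal might not be visible, so the long minus short values of 0.03 and 0.15 say little on CKMT2. The other mitochondrial kinase, CKMT1A in the annotation, had a long mean of 7.39 ± 0.47 (SD, n = 5) and a short mean of 6.94 ± 0.32 (SD, n = 5) and did not pass (0.44 ± 0.22, SE, limma adjusted p = 0.261).

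**Figure D2:**
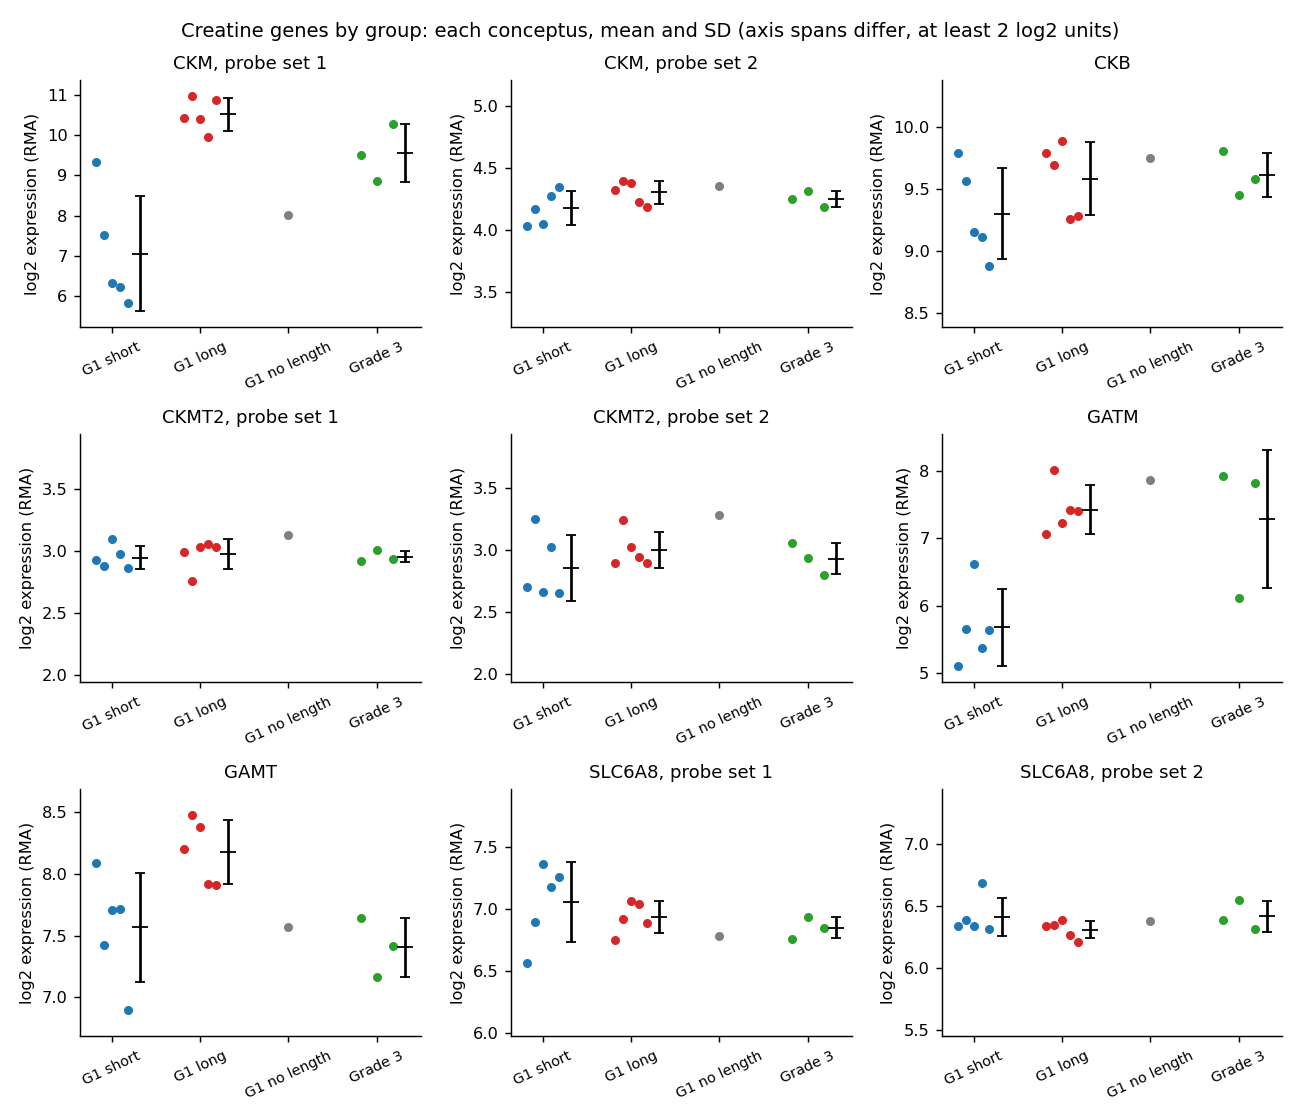
Log2 expression (RMA, vertical axes) of the 9 probe sets in short, long and no-length Grade 1 (G1) and Grade 3 conceptuses (points, 1 per conceptus), with the mean and SD of each group of more than 1 (black). CKM probe set 1 and GATM separate long from short conceptuses, and probe set 2 of CKM does not.

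In the length comparison 2 of the 9 probe sets passed in limma, CKM probe set 1 and GATM, and in the same 2 the groups did not overlap. Over all probe sets 6.57% passed and 8.42% did not overlap. Since this contrast chose the group, nothing is read from those counts, nor from the calls of members in the other fits that follow. Without Grade 1 short replicate 1, 3 passed, GAMT being the added one. Counted as long, as its other label says, it left CKM alone past the threshold: CKM then differed by 3.86 and GATM by 1.22 ± 0.46 (SE). With title prefix fitted as a fixed block, CKM (3.66 ± 0.30, SE) and GAMT (0.79 ± 0.11) passed and GATM did not (1.55 ± 0.37). That fit draws the length difference only from the 2 prefixes that hold both lengths. With prefix as a random block, CKM (3.46 ± 0.54, SE) and GATM (1.73 ± 0.26) passed.

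Sample titles share 7 prefixes whose meaning the labels do not state, and 2 of them hold both lengths. Within the prefix of 2 long and 1 short conceptuses, CKM probe set 1 averaged 10.70 and 7.51, and within that of 1 long and 2 short ones 10.40 and 6.27. GATM averaged 7.54 and 5.66 in the former and 7.23 and 6.00 in the latter. Inside both prefixes CKM and GATM were thus higher in long conceptuses, by 3.19 and 4.13 for CKM and by 1.88 and 1.22 for GATM.

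The genes whose levels followed CKM probe set 1 most closely were ranked among the 6305 genes at or above the median level. Over the 14 arrays these were RAB2A (r = 0.922), ACOT13 (0.921), PALS1 (0.919), TM9SF2 (0.917), UBASH3B (0.913), MINDY1 (0.912), SSLP1 (0.91) and SDCBP (0.907). Each differed far less between the lengths than CKM, from 0.23 for SSLP1 to 0.55 for SDCBP on the log2 scale. When group means were removed (13 arrays), the closest were TP53INP1 (0.923), ALG12 (0.92), PLCL2 (0.914), GTF2IRD1 (0.906), PAFAH1B3 (0.895), RNH1 (0.894), LPAR1 (0.892) and TLE3 (0.89). No gene was in both sets of 8, but some were close by both measures. Over the 14 arrays RNH1 stood at 0.881 and TP53INP1 at 0.822, and with group means removed MINDY1 stood at 0.864 and UBASH3B at 0.856. Others were not: over the 14 arrays ALG12 stood at 0.193 and GTF2IRD1 at 0.235. By the second measure CKB stood at r = 0.708 (rank 253 of 6305), GAMT at 0.603 (rank 547) and GATM at -0.03 (rank 3107). Over the 14 arrays the same genes stood close together, at 0.636, 0.635 and 0.627 (ranks 608, 614 and 635). The value of -0.03 counts Grade 1 short replicate 1, highest of its group for CKM and lowest for GATM, as short. How far GATM followed CKM within groups without that conceptus is not given. All arrays share one normalisation step, and these values describe likeness in these arrays alone.

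The grade comparison, which did not choose the group, asked whether embryo morphology at transfer went with different levels on Day 15. No title prefix holds both grades, and Grade 3 replicates 2 and 3 share a prefix, so grade and prefix cannot be told apart. None of the 9 probe sets passed in limma (0 also at an unadjusted p under 0.05), nor did any other probe set (0% of 24016 passed, 1215 at an unadjusted p under 0.05). In none of the 9 did the grades separate, against 0.554% of all probe sets. For CKM probe set 1 the 3 Grade 3 conceptuses averaged 9.56 ± 0.71 (SD), and the 11 of Grade 1 averaged 8.72 ± 1.99 (SD). The difference of 0.84 had a 95% interval from -1.41 to 3.09 (limma adjusted p = 0.999, exact permutation p = 0.508, two-sided). GATM differed by 0.61 (interval from -0.66 to 1.89, exact permutation p = 0.407) and GAMT by -0.44 (from -0.97 to 0.09, exact permutation p = 0.135), each with limma adjusted p = 0.999. The intervals of CKM and GATM were wide, and for GATM the SD was 1.02 in Grade 3 (n = 3) and 1.05 in Grade 1 (n = 11). CKB, at 0.14, and SLC6A8, at -0.13 and 0.05, had intervals within -0.41 and 0.55.

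Set against each length, Grade 3 fell between the lengths for CKM. It was below long Grade 1 by a log2 difference of -0.97 ± 0.62 (SE) and above short Grade 1 by 2.51 ± 0.62, so the sign of its difference from Grade 1 depended on length. In order of level came long, Grade 3, the conceptus with no length and short. Long and Grade 3 overlapped, and the conceptus with no length was below all 3 Grade 3 conceptuses. It was inside the short range only through the conceptus with disagreeing labels, which the 2.51 counts as short. Without that conceptus the short group lay below the no-length and all Grade 3 conceptuses. GATM in Grade 3 differed from long by -0.14 ± 0.39 and from short by 1.61 ± 0.39. For GAMT the pattern was the other way, at -0.77 ± 0.22 from long and -0.16 ± 0.22 from short. Long and short conceptuses chose the group, so these values carry no test, and both differences share the Grade 3 conceptuses.

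**Figure D3:**
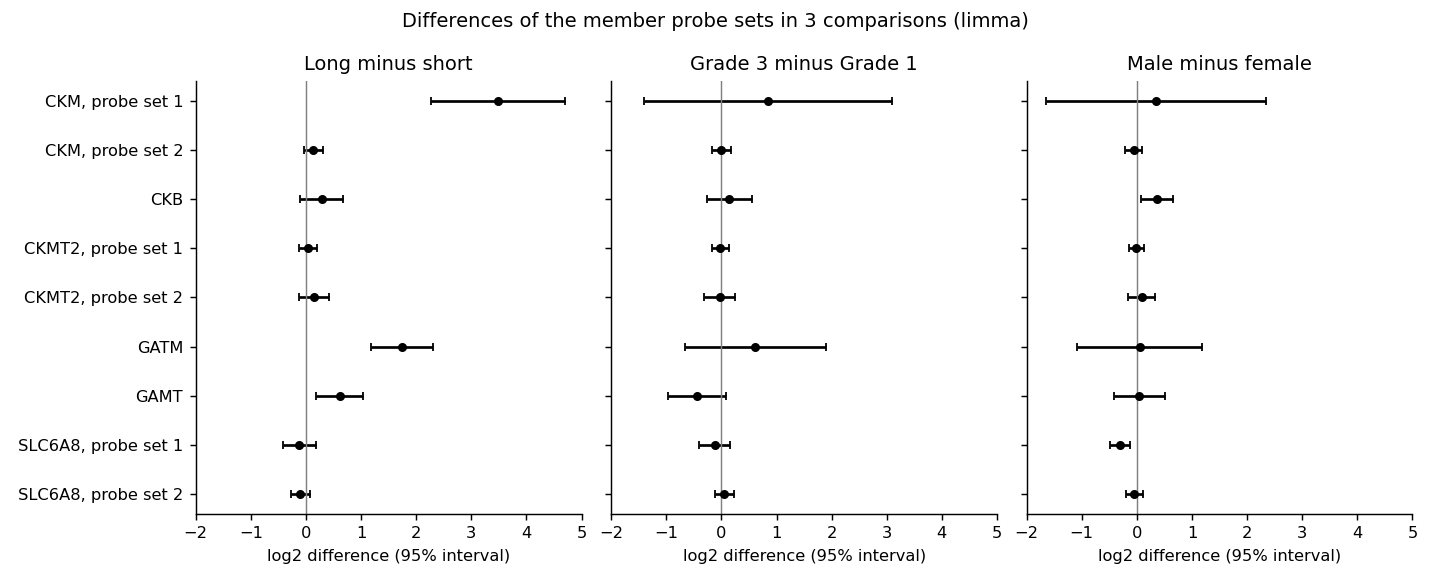
Log2 differences (horizontal axes, points) with 95% intervals (bars) from limma for the 9 probe sets, long minus short, Grade 3 minus Grade 1 and male minus female. In the grade panel every interval crosses 0, and in the sex panel those of CKB and SLC6A8 probe set 1 do not.

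SLC6A8 lies on the X chromosome, and its levels were compared between the sexes, a contrast that did not choose the group. The first probe set ran from 6.57 to 6.89 in the 6 males (median 6.77) and from 6.88 to 7.36 in the 8 females (median 7.06). A single pair overlapped, male Grade 1 short replicate 2 and female Grade 1 long replicate 5. Males averaged 6.77 ± 0.11 (SD, n = 6) and females 7.08 ± 0.17 (SD, n = 8), and with embryo grade as covariate males were 0.81 of the female level (log2 -0.31, 95% interval from -0.49 to -0.12). The exact permutation test over conceptuses, without the covariate, gave p = 0.00233 (two-sided), but the difference did not pass over all probe sets (limma adjusted p = 0.247). With title prefix fitted as a fixed block it was -0.10 ± 0.11 (SE, limma adjusted p = 0.942). That fit has no term for length or grade and rests on the 2 prefixes that hold both sexes. As the mean of both probe sets the sex difference was -0.18. The second probe set differed by -0.05 (interval from -0.20 to 0.11, adjusted p = 0.928), so both probe sets did not show the same size.

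Of the 9 probe sets, 0 passed for sex in limma, beside 0.362% of all probe sets. At an unadjusted p under 0.05 there were 2 of the 9, beside 1928 of all 24016. The other of these 2 was CKB, which ran from 9.56 to 9.81 in males and from 8.88 to 9.89 in females. Its male minus female difference was 0.37 (interval from 0.07 to 0.66, adjusted p = 0.486, exact permutation p = 0.023). With title prefix fitted as a fixed block, and no term for length or grade, it was 0.05 ± 0.20 (SE, adjusted p = 0.985). The 6 males lay close together, while the females ran from below them to above them, the highest value being that of female Grade 1 long replicate 3. GATM and GAMT differed by 0.06 and 0.05, with intervals from -1.08 to 1.19 and from -0.42 to 0.52.

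For CKM probe set 1 the sexes did not overlap within short conceptuses, but the difference there did not pass. The 2 short males measured 9.34 and 7.51 and the 3 short females 6.32, 6.23 and 5.83, a difference of 2.30 ± 0.48 (log2, SE, limma adjusted p = 0.256) in a fit added after the values were seen. Among long conceptuses the 1 male, at 10.42, lay inside the range of the 4 females, 9.95 to 10.98. With grade as covariate the sex difference was 0.35 (adjusted p = 0.961). With all 4 groups as covariate it was 1.26 ± 0.41 (SE, adjusted p = 0.233), and in that fit 0 of 9 probe sets passed, beside 0.458% of all. At an unadjusted p under 0.05 there were 3 of the 9, beside 3017 of all 24016. Long minus short was 2.43 ± 0.74 (log2, SE) larger in females than in males, a fit also added after these values were seen (limma adjusted p = 1). In that fit 0% of all probe sets passed (918 at an unadjusted p under 0.05), and 0 of the 9 (1 at an unadjusted p under 0.05). Among females alone, long minus short was 4.42. One of the short males is the conceptus whose labels disagree, and 5 of the 7 title prefixes hold 1 sex. With title prefix fitted as a fixed block the sex difference of CKM was -0.83. That fit has no term for length or grade and rests on the 2 prefixes that hold both sexes. In one of these a short, a long and a no-length male stand against a long female, so sex and length are mixed in the value. Sex and prefix cannot be told apart in the short group.

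**Figure D4:**
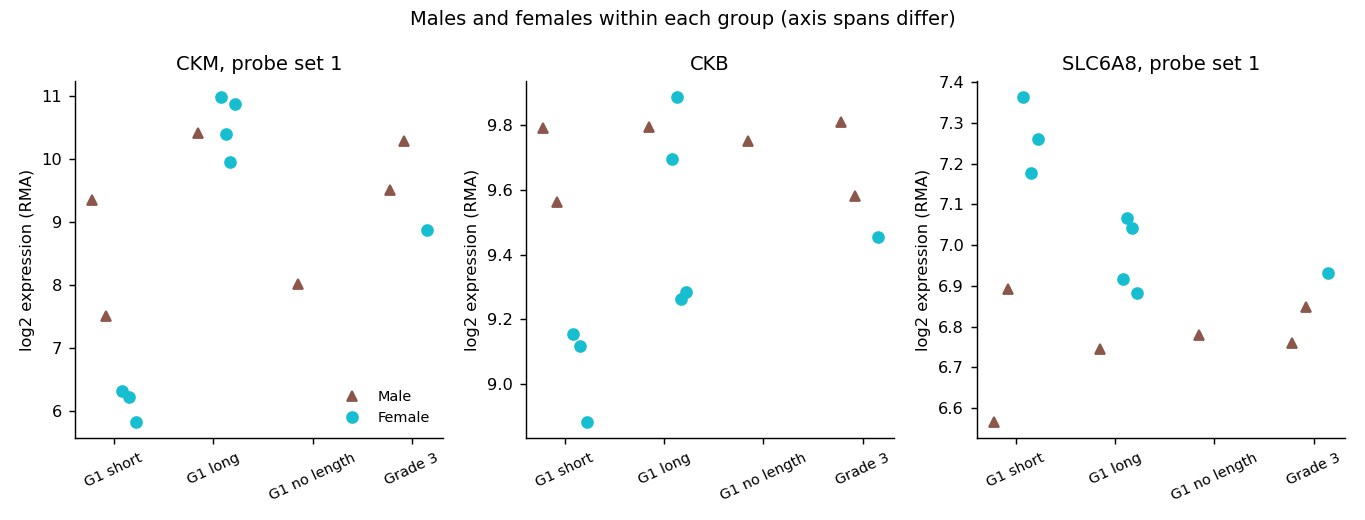
Log2 expression (RMA, vertical axes) of CKM probe set 1, CKB and SLC6A8 probe set 1 in males (triangles) and females (circles) of each group (G1 for Grade 1). SLC6A8 is lower in males of every group that holds both sexes, apart from 1 pair across groups, and the short males lie above the short females for CKM, a difference that did not pass (2.30, limma adjusted p = 0.256).

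Genes that feed or surround the creatine system were examined through 8 lists, which held 56 measured genes outside the group. In long conceptuses 4 of the 56 rose and 3 fell in limma (12.5%, beside 6.57% of all probe sets), and none passed for grade or sex. Over these and the marker genes, 116 in all, 4 were at an unadjusted p under 0.05 for grade and 9 for sex, beside 1215 and 1928 of all 24016 probe sets. List and marker genes are counted by their brightest probe set, while shares over all probe sets include dim and unnamed ones. The shares are therefore not like for like.

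The arginine and glycine list holds genes that supply these precursors and others that break them down, such as ARG1, GLDC and AMT. Of its genes 13 were measured, 2 fell and 0 rose, and the median was -0.11 against -0.02 over all probe sets. Counts and median thus mix supply and use. SHMT2, which makes glycine from serine in mitochondria, had a long mean of 8.40 ± 0.16 (SD, n = 5) and a short mean of 9.16 ± 0.16 (SD, n = 5) and fell by 0.75 ± 0.10 (log2, SE, limma adjusted p = 0.00788). PSAT1, an enzyme of serine synthesis, fell by 0.94 ± 0.18 (adjusted p = 0.0165). The enzymes that make arginine from citrulline, ASS1 and ASL, stood at 1.06 ± 0.33 and 0.86 ± 0.26 and did not pass (adjusted p = 0.0797 and 0.0691). On the side of glycine and serine 2 genes were thus lower and the rest did not pass. Among these PHGDH stood at -0.55 ± 0.34 (SE, adjusted p = 0.386) and PSPH, in the other direction, at 0.43 ± 0.19 (0.217). The pair that makes arginine had positive values that missed the threshold.

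Of 11 measured genes of methyl donor supply, 1 rose and 0 fell, with a median of -0.18. The one was AHCYL1, at 0.35 ± 0.07 (SE, adjusted p = 0.0167), a relative of the hydrolase AHCY that is known for binding the IP3 receptor. AHCY itself, which clears the by-product of GAMT, stood at -0.18 ± 0.08 (adjusted p = 0.222). GNMT, which like GAMT uses S-adenosylmethionine but methylates glycine, stood at -0.31 ± 0.10 (adjusted p = 0.0859).

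Adenylate kinases, which move phosphate between adenine nucleotides, changed in both directions. Among 8 measured genes of the adenylate kinase and AMP kinase list, 2 rose and 1 fell, with a median of -0.08. Cytosolic AK1 had a long mean of 6.16 ± 0.27 (SD, n = 5) and a short mean of 7.15 ± 0.28 (SD, n = 5) and fell by 0.99 ± 0.15 (log2, SE, adjusted p = 0.00902). AK4 and AK3, both of the mitochondrial matrix, rose by 1.34 ± 0.30 (adjusted p = 0.0278) and 0.52 ± 0.13 (adjusted p = 0.0393). The catalytic AMP kinase subunit PRKAA1 stood at 0.21 ± 0.07 (adjusted p = 0.124).

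Of 8 genes for exchange of adenine nucleotides at the mitochondrion 1 rose, the outer membrane channel VDAC3, by 0.32 ± 0.08 (adjusted p = 0.0443). The median was -0.05, and the inner membrane carriers SLC25A4, SLC25A5 and SLC25A6 stood at -0.04, -0.14 and -0.18. None of 7 ATP-using ion pump genes passed (median -0.02), the smallest adjusted p being those of ATP1B3 (-0.22, 0.0818) and ATP1B1 (0.70, 0.274), subunits of the sodium pump. With each conceptus left out in turn SHMT2, PSAT1, AK1 and AHCYL1 kept their calls in 10 of 10 fits. AK4 lost it in 7 (all but those without long replicate 3 or short replicates 1 and 2, highest adjusted p = 0.0719), AK3 in 7 (all but those without short replicates 1, 2 and 5, 0.0966) and VDAC3 in 8 (all but those without long replicate 3 or short replicate 3, 0.101). All 7 list genes lost the call with the doubtful conceptus counted as long, and again with title prefix fitted as a fixed block. With prefix as a random block VDAC3 alone of them lost it. In females alone PSAT1, AK3 and VDAC3 did not pass.

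**Figure D5:**
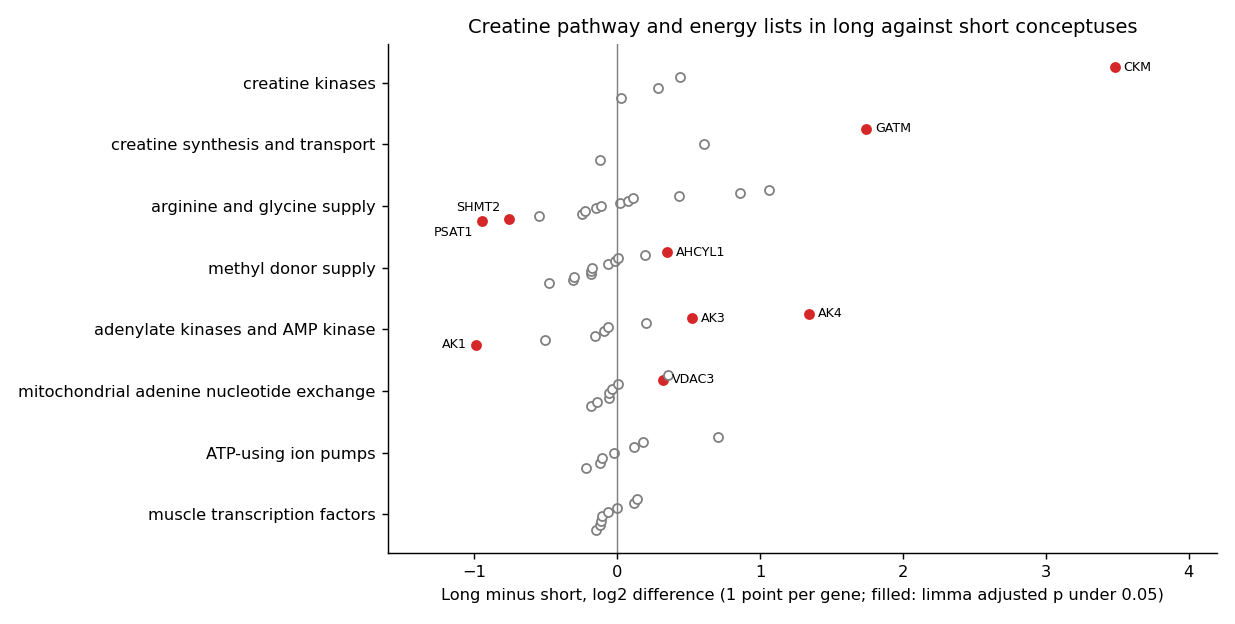
Log2 difference, long minus short (horizontal axis), of the brightest probe set of each measured gene (points) in the 8 lists (1 line each), filled where limma's adjusted p was under 0.05. CKM, at 3.48, and GATM, at 1.74, lie farthest to the right, and AK1, at -0.99, farthest to the left.

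Some markers of other layers also passed for length, as did 6.57% of all probe sets. Of 8 trophoblast genes TFAP2A alone passed, rising by 0.38 (limma adjusted p = 0.045). Of 6 hypoblast genes APOA1 rose by 0.59 (adjusted p = 0.00982) and RBP4 by 1.30 (0.0167). GATA6, AFP and TTR stood at -0.18, -0.16 and -0.11 and HNF4A at 0.04 without passing, and the list median was -0.03. Of 3 epiblast genes DNMT3B fell by 0.40 (adjusted p = 0.0337). Of 8 blood and immune genes CD8A fell by 0.84 (adjusted p = 0.0322), while PTPRC, which marks leukocytes, stood at 3.00 in long and 3.11 in short conceptuses. None of 6 endometrial genes passed. The mean log2 level of the hypoblast list ran from 6.91 to 7.24 in short and from 7.24 to 7.43 in long conceptuses, and that of the epiblast list from 5.94 to 6.44 and from 5.56 to 5.99. The part of such shifts in the values of CKM and GATM was not tested. With 1 conceptus left out in turn, TFAP2A lost its call in 8 of 10 fits (all but those without short replicates 1 and 5, highest adjusted p = 0.0982). DNMT3B lost it in 7 (all but those without short replicates 2 and 5 or long replicate 3, 0.0795) and CD8A in 7 (all but those without short replicate 1 or long replicates 1 and 3, 0.0771). All 5 genes lost the call with the doubtful conceptus counted as long and with the fixed prefix block, but none with a random prefix block. In females alone RBP4, TFAP2A and DNMT3B also lost it. TFAP2A lost it too when arrays were centred on their medians.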

How the data were processed

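RNA of 14 conceptuses was hybridised to 1 Affymetrix bovine array each, from 250 ng of total RNA per the labels' protocols. The deposited values are on a log2 scale, 1 per probe set and array. The submitters' processing notes name Expression Console and RMA as the authors' tools, with no version, and do not say whether all 14 arrays were processed in 1 run. RMA corrects background, quantile-normalises arrays and sums the probes of a set, which removes shifts shared by a whole array.

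Of 24128 probe sets, 112 array controls were left out. Symbols came from the platform annotation (13292 probe sets with 1 symbol, 86 with several, 10638 with none). All 6 genes were found in RefSeq's gene table (ARS-UCD2.0), which gave names, gene order and the X chromosome. A list gene was represented by its brightest probe set. Comparisons used limma 3.58.1 (lmFit, eBayes) in R 4.3.3 on all 24016 probe sets, two-sided, with Benjamini-Hochberg adjustment and a threshold of 0.05, and exact permutation of conceptuses for single probe sets. The fits were tested on simulated data. Grade 3 was compared with all 11 Grade 1 conceptuses, since the 4 that the design text counts are not named. The sex comparison had embryo grade as covariate. The length characteristic was used for the conceptus whose labels disagree. Members, lists and tests were chosen with earlier results of these data known. Named beside the members were the 8 genes most like CKM by each measure and, per list, the genes that passed or else the 2 with the smallest p. Other list genes (such as ACTA1, MYOZ1, MYH7, MYOD1, ASS1, AHCY, GNMT, PRKAA1, CKMT1A and PTPRC) and the neighbours of CKM were added after their values were seen.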

Additional observations from a re-analysis of the deposited data

Results flagged for a closer look

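Within the groups of 5, 2 values stood apart from their group, by a gap divided by the group's range above the critical value for 5 samples. SLC6A8 probe set 2 measured 6.69 in Grade 1 short replicate 4, with the next value at 6.39 and the lowest at 6.32 (ratio 0.805). CKMT2 probe set 1 measured 2.76 in Grade 1 long replicate 2, with the next at 3.00 and the highest at 3.06 (ratio 0.796). In all, 18 sets of 5 values were examined, and chance alone gives about 1 in 20.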

How the results depend on the processing

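No paired analysis was possible because replicate numbers only name samples in accession order and so pair none. Title prefix, of unstated meaning, was fitted as a fixed block instead, which a prefix block means throughout unless called random. In the length comparison CKM passed in all 21 alternatives that kept its probe set alone, and leaving out 1 conceptus gave 3.17 to 4.05, whereas the mean of its probe sets gave 1.80. This contrast chose the group, so nothing is read from those passes. Calls over all probe sets (1577) ran from 460, without short replicate 4, to 1697, without short replicate 1. They came to 492 with the doubtful conceptus counted as long (1 of the 9 probe sets then passed). Title prefix gave 112 as a fixed block and 1653 as a random block. With sex as covariate the calls came to 2403 and in females alone to 903. For grade and sex, 0 of the 9 passed under any alternative. Grade calls over all probe sets ran from 0 to 2 without 1 conceptus. Sex calls (87) ran from 49 to 126 without 1 conceptus, and came to 5 with the prefix block and 18 in short conceptuses alone. The prefix block, which for sex had no term for length or grade, also brought SLC6A8 probe set 1 to -0.101 and CKB to 0.0548. Differences that changed sign had all missed the threshold, and the cause was not tested. For length, CKMT2 probe set 1 gave -0.00617 in females alone. For grade, CKM probe set 1 gave -0.967 and GATM -0.138 against long alone. CKM probe set 2 gave -0.0531 against long alone, -0.0211 without the doubtful conceptus, -0.00944 with centred arrays, -0.0185 with quantile normalisation once more and -0.0293 to 0.0324 without 1 conceptus. The CKMT2 probe sets gave 0.00761 and 0.0747 against short alone, and without 1 conceptus the second gave -0.0924 to 0.0353 and SLC6A8 probe set 2 gave -0.0141 to 0.105. For sex, the prefix block gave -0.832 for CKM probe set 1, 0.113 and -0.115 for CKMT2, -0.00405 for GATM and -0.346 for GAMT. Without 1 conceptus these ran from -0.0285 to 0.708 for CKM, from -0.0506 to 0.012 for CKMT2 probe set 1, from -0.392 to 0.459 for GATM and from -0.0751 to 0.159 for GAMT. CKMT2 probe set 1 also gave 0.000502 with quantile normalisation once more and 0.0376 as the mean of its probe sets, GATM -0.496 in short conceptuses alone, and GAMT -0.00655 without the doubtful conceptus and -0.0477 with no covariate. Signal limits CKMT2, whose probe sets lay under the 25th percentile, and CKM probe set 2, which lay little above it. The 3 Grade 3 arrays limit the grade comparison, as does the lack of a title prefix with both grades.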
